A study of Mus musculus with 2 samples.

Results

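The transcripts of 10 immediate early genes were followed in a mouse T-cell leukemia with Ikaros silenced and after Ikaros was allowed to return. The genes were Fos, Fosb, Jun, Junb and Jund, which encode subunits of the AP-1 transcription factor, Egr1, Nr4a1 and Nr4a3, which encode other transcription factors, and Ier2 and Zfp36. Members were the rows of the deposited count table whose Entrez identifier maps to one of these symbols. All 10 were present among the 27179 genes listed, and all 10 were among the 12125 genes that reached 1 CPM or more in either library, where CPM are counts made comparable by the libraries' scaled totals. Nr4a3 reached that level in the Dox library alone, so it could only be kept with a higher value there.

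The cells came from ALL211, a single primary T-cell acute lymphoblastic leukemia (T-ALL) of genotype Vav-tTA;TRE-GFP-shIkaros, grown in recipient mice and sorted from the spleen. Vav-tTA places a tetracycline-controlled transactivator under a promoter active in blood cells, and the transactivator drives a hairpin RNA against Ikaros together with GFP. Doxycycline (Dox) shuts the hairpin and GFP off, and both groups carry the same alleles. The untreated group was 1 library of cells sorted as GFPhigh, and the treated group was 1 library of cells sorted as GFPmid after 3 days of Dox. The series design names 2 mice per condition, and whether their RNA was pooled is not stated in the sources used here. The ages of the mice are not given in the labels, and both libraries carry 1 batch date. Drug, sorting gate and mice differ together between the libraries and cannot be told apart, and no Dox sample without the hairpin was analysed here.

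Immediate early genes are transcribed within minutes of a signal, without new protein synthesis, and their mRNAs are short-lived. Growth factor, stress and antigen receptor signals reach them through MAP kinases, serum response factor (SRF) with its Ets-type partners, and CREB. In T cells AP-1 acts beside NFAT on activation genes, Egr1 and Nr4a1 respond to the T-cell receptor, and Zfp36 removes mRNAs that carry AU-rich elements.

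Stretches before an annotated start are shown first for 6 of the 8 genes whose level with Dox was 2-fold or more above the untreated one, without Junb and Jund, because the signals named above act on such regions through short DNA words. RefSeq promoter windows on GRCm38.p6, from 250 bases before to 50 bases after the annotated start, were matched for 8 of the 10 genes (not Egr1 and Ier2). Each stretch below reads 5′ to 3′ on the gene's strand. Capitals mark the words that follow, searched on both strands. TGACG is the core of the cyclic AMP response element, where CREB binds. GCGNGGGCG is the word of Egr proteins, and CCGGAA that of Ets proteins. TATAAA is the TATA box, and TGGGAA the core of sites known for Ikaros. The CArG box is read by SRF. The stretches end at base -1 before the window's start, apart from that of Nr4a3, which begins at -240.
Fos: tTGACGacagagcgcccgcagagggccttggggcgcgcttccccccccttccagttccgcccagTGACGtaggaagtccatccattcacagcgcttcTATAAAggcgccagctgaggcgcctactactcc
Fosb: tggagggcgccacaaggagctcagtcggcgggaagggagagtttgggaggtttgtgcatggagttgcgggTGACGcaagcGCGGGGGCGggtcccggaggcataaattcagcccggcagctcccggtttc
Nr4a1: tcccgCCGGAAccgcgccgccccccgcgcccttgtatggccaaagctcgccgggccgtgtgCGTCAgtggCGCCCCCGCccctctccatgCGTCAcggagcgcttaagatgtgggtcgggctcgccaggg
Nr4a3: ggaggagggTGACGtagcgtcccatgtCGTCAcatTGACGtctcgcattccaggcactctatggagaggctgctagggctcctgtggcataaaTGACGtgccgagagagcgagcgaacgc
Zfp36: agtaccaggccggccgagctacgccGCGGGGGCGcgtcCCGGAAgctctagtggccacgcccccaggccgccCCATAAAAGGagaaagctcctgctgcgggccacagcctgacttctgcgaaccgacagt
Jun: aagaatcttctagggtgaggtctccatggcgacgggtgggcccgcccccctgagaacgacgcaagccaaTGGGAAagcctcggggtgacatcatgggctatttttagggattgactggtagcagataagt
The Fos stretch lies at chr12:85473760-85473889 (+), Fosb at chr7:19310046-19310175 (-), Nr4a1 at chr15:101266716-101266845 (+), Nr4a3 at chr4:48045065-48045184 (+), Zfp36 at chr7:28379229-28379358 (-) and Jun at chr4:95052223-95052352 (-). The window's start is the outer end of the gene for Fos, Jun and Zfp36. For Nr4a1 it is an internal start, 12944 bases inside the gene, where GENCODE also begins a transcript, so that the whole stretch lies within the gene. For Fosb it is 73 bases and for Nr4a3 227 bases inside the outer end, and 73 of 130 and 107 of 120 bases of these stretches lie within the gene. GENCODE begins a transcript at the window's start for Fos and Jun as well, but not for Fosb, Nr4a3 and Zfp36. Positions in those windows therefore hold for the RefSeq start only.

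The core TGACG was found in 5 of the 8 windows (Fos, Fosb, Junb, Nr4a1 and Nr4a3), against 20.8% of all 32851 windows of this length. Fos held it at -129 and -66 and Fosb at -60, while the Nr4a1 and Nr4a3 windows each held 4 copies. A CArG box was found in 1 of 8 windows, that of Zfp36 at -58 to -49, against 1.63% of all windows. Bases outside the windows were not searched, for this or any other word. A window without a match therefore does not show that its gene lacks the word farther from the start. The Egr word was in 3 of 8 (Fosb, Nr4a1 and Zfp36), against 5.55% of all windows. The Sp1 box GGGCGG, also searched but not marked in capitals, was in 6 of 8, against 35.7% of all windows. Its letters share bases with the Egr word in Fosb (-46 to -41) and Nr4a1 (-55 to -50), but not in Zfp36. The Ets word was in 2 of 8 against 14.9%, and the letters of the TATA box in 2 of 8 against 13.6%. The latter lay at -33 to -28 in Fos. In Junb they lay at bases 1 to 6, that is from the annotated start on and not before it. The Ikaros core was in 2 of 8, Jun and Jund, against 25.6% of all windows. Exact matches to the full element TGACGTCA, the AP-1 site TGANTCA and the Nr4a site AAAGGTCA were in 0 of 8. The Jun stretch holds tgacatca, close to TGACGTCA in its letters, which this exact search does not count. These 8 windows were 46.7% to 72.3% G and C, and the median of all windows was 52.7%. A match of letters is a description of the window and shows no binding.

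The libraries held 16960042 counts (untreated) and 16484613 counts (Dox). Ikzf1, the gene of Ikaros, had 120.5 CPM untreated and 1229 CPM with Dox, the direction its label gives. The labelled T-cell identity was checked against 14 markers, and all 14 were above 1 CPM in both libraries, with Thy1 at 2145 and 1920 CPM and Lck at 1279 and 1191 CPM. Markers of other cells were also present, and most lists had a higher summed level with Dox, as the immediate early genes did. Of 19 macrophage markers 16 had a higher CPM with Dox, 1 a lower one (Cd163, 7 and 1 counts) and 2 were at 0 in both. Of the 15 kept, 10 reached 1 CPM in the Dox library alone and could only be kept with a higher value there. The whole list summed to 73.5 CPM untreated and 349.0 CPM Dox, most of it from Itgam (60.6 and 181.0 CPM) and Mpeg1 (1.64 and 96.8 CPM). Of the macrophage list, Marco and Vsig4 were at 0 counts in both libraries and Cd14 at 0 and 6. All 9 dendritic cell markers had a higher CPM with Dox (summed 259.9 and 630.9 CPM, mostly Ccr7 and Bst2, which T cells also express), of the 8 kept 6 passed through the Dox library alone, and Clec9a, Siglech, Zbtb46 and Cd209a were at 0 in the untreated library. MHC class II genes summed to 42.8 and 681.7 CPM, neutrophil markers to 5.21 and 10.9 CPM, natural killer markers to 0.762 and 7.20 CPM and erythroid markers to 12.0 and 78.9 CPM. B-cell markers summed to 45.6 and 29.4 CPM, most of it from Sdc1 (43.6 and 22.7 CPM). Without Sdc1 they summed to 1.99 and 6.66 CPM, with Jchain at 0 and 34 counts, and Pax5 and Ebf1 at 0 in both. Stromal and endothelial markers summed to 253.7 and 357.3 CPM, mostly Pecam1 (166.2 and 316.8 CPM), and to 87.5 and 40.4 CPM without it. Col1a2 (76.4 and 32.8 CPM) and Pdgfrb (80 and 2 counts) were called lower at 2-fold. Platelet markers summed to 0.117 and 0.427 CPM. The part of these cells in the results below was not tested. In bulk RNA of this kind, fewer cells that express a gene and less RNA per cell cannot be told apart.

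With 1 library per condition no test was possible and no p-value is given. Each ratio below is Dox over untreated CPM with an exact 95% interval from the counts, which covers counting error only and treats PCR copies as independent. Log2 folds carry a prior count of 2 in each library. A gene is called higher or lower here where its log2 fold is at least 1 or at most -1, that is 2-fold. Of all genes kept, 13.6% were called higher with Dox and 13.0% called lower. Any positive log2 fold was seen in 49.3% of them, and their median was -0.01.

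All 10 immediate early genes had a positive log2 fold, and 8 were called higher and 0 called lower. The remaining 2, Egr1 and Ier2, differed by less than 2-fold. Over the 10 genes the median was 1.63. The 10 genes were chosen with earlier results of these data known. Their counts beside the shares of all genes are therefore a description and no test. A 4-fold gap or more was seen for 4 of the 10 (Fos, Nr4a3, Zfp36 and Jun), and for 4.46% of all genes kept in that direction. The counting interval lay wholly above 2-fold for 7 of the 10, against 9.11% of all genes kept. Nr4a1 was the one 2-fold gene whose interval reached below 2. Their summed level was 419.7 CPM untreated and 1070 CPM Dox, and the gain of 650.3 CPM came mainly from Zfp36 (32.0%), Jund (22.9%), Junb (13.6%) and Fos (13.6%), while Egr1 and Ier2 together with Nr4a3 and Fosb added little (0.554%, 1.79%, 0.593% and 1.68%).

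**Figure D1:**
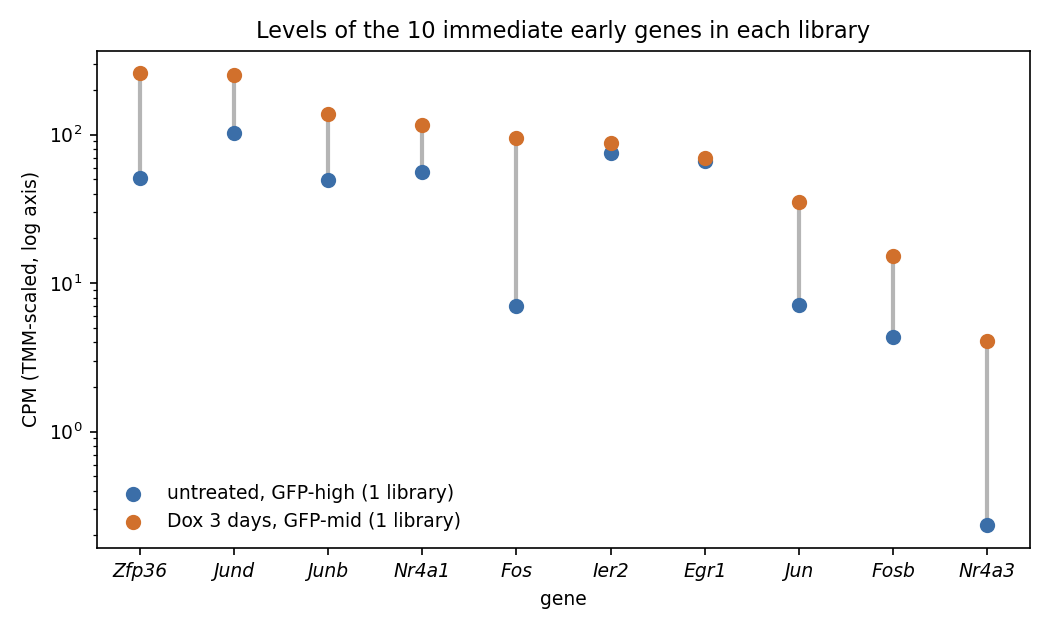
Level of each of the 10 genes in the untreated library (blue) and the library of 3 days of Dox (orange), in CPM on a log axis, 1 library per condition. The orange point is above the blue one for every gene, with a wide gap for Fos (7.03 and 95.3 CPM) and a narrow one for Egr1 (66.3 and 69.9 CPM).

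**Figure D2:**
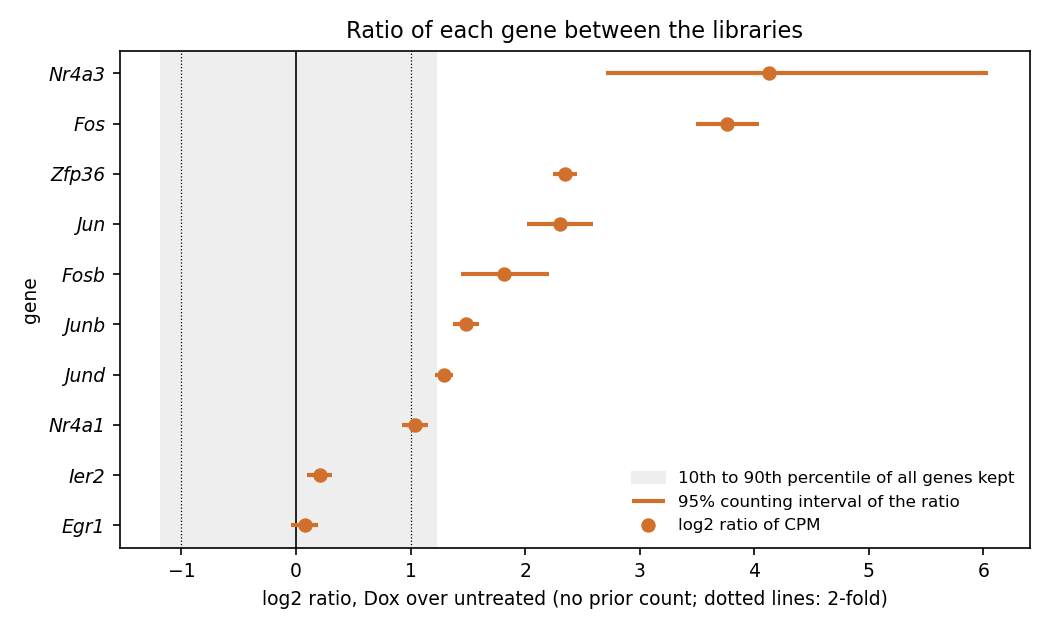
Log2 ratio of CPM, Dox over untreated, with no prior count (points) and its 95% counting interval (bars), over the 10th to 90th percentile of log2 folds of all genes kept (grey, -1.18 to 1.22). Egr1, Ier2 and Nr4a1 lie inside the grey band, and the other 7 genes lie above it, with a wide interval for Nr4a3.

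Fos, the founding member of the family that pairs with Jun proteins to form AP-1, had a log2 fold of 3.74, the highest of the 10 with a prior count of 2. With a prior count of 0.5 Nr4a3 came first (3.96, and 3.75 for Fos). Its counts were 120 untreated and 1560 with Dox, or 7.03 and 95.3 CPM, a ratio of 13.6 (interval 11.2 to 16.5). By log2 fold it ranked 139 among the 12125 genes kept. Fos (Entrez 14281) lies on chromosome 12, 85473890 to 85477274, and has 4 exons.

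Fosb, its close relative, was less abundant per length and differed less. It had 74 and 250 counts (4.33 and 15.3 CPM), a ratio of 3.52 (interval 2.71 to 4.63). Per kilobase of transcript (CPM divided by transcript length, RPKM), Fos was 2.93 times the level of Fosb untreated and 11.3 times with Dox. The remaining Fos family genes were nearly silent: Fosl1 had 0 counts in both libraries, and Fosl2 had 13 and 7.

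The Jun proteins can bind DNA as pairs among themselves or with Fos proteins, and Jund is known as the more steadily expressed member. Jun (Entrez 16476; chromosome 4, 95049036 to 95052222) had 121 and 572 counts (7.09 and 34.9 CPM), a ratio of 4.93 (interval 4.04 to 6.05). Junb (Entrez 16477; chromosome 8, 84976909 to 84978748), which often opposes Jun at growth genes, was at 49.5 and 138.2 CPM, a ratio of 2.79 (interval 2.58 to 3.02). Jund (Entrez 16478; chromosome 8, 70697739 to 70700616) was at 102.5 and 251.2 CPM, a ratio of 2.45 (interval 2.32 to 2.59). The order of the ratios was thus the reverse of the order of the levels per length in both libraries, with the scarce Jun showing the widest gap. All 3 are genes of 1 exon. Junb overlaps Prdx2 on the other strand by 351 bases. Prdx2 had 4401 and 3518 counts, and which gene the reads from the shared bases were counted for is not known. Jun, Jund and Zfp36 overlap antisense transcripts that the count table does not list (Junos, Gm11175 and Gm44710).

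Per length, the summed Fos and Jun family transcripts were at 69.4 RPKM untreated and 223.0 RPKM Dox. In the untreated library this pool was nearly all Jun family: Jund made up 51.3%, Junb 38.8% and Jun 3.21%, and Fos only 4.84%. In the Dox library Fos made up 20.4%, while Jund was at 39.1%, Junb at 33.7% and Jun at 4.92%. The Fos family as a whole thus held 6.68% of the pool untreated and 22.3% in the Dox library. Junb and Jund kept nearly the same balance, with 0.755 and 0.860 Junb transcripts per Jund transcript, while Fos per Jund was 0.0943 and 0.521. These are shares of mRNA, and protein was not measured.

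**Figure D3:**
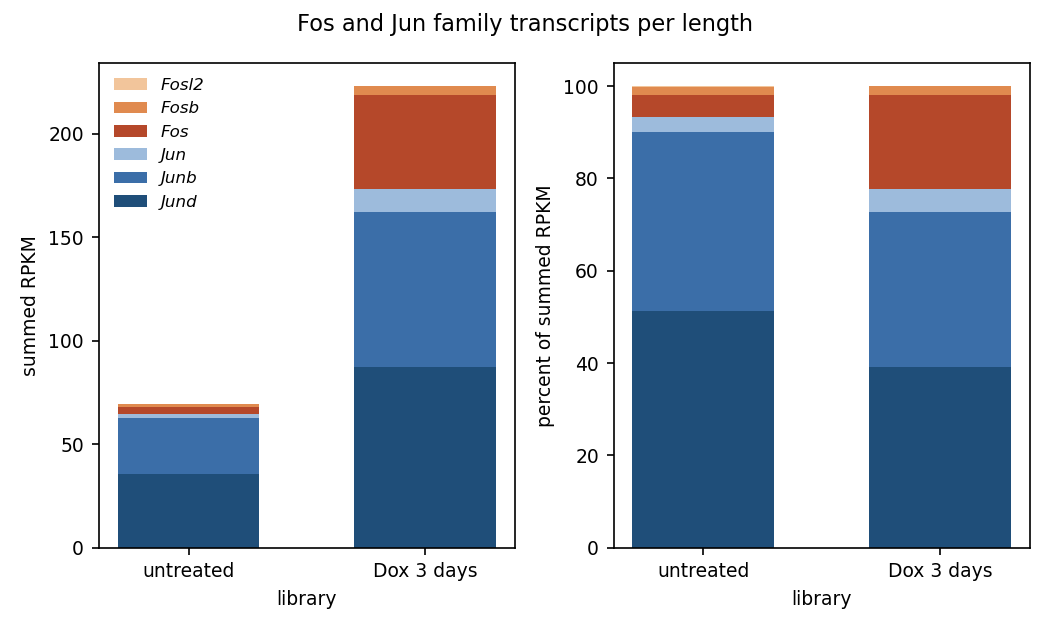
Fos and Jun family transcripts in each library, as summed RPKM (left) and as percent of that sum (right), stacked by gene, 1 library per condition. The sum is 69.4 RPKM untreated and 223.0 RPKM Dox, and the Fos segment widens from 4.84% to 20.4% of the pool.

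Egr1, a zinc finger factor induced through SRF and the ERK kinases, lay within 2-fold, unlike the AP-1 genes. It had 1132 and 1145 counts (66.3 and 69.9 CPM), a ratio of 1.05 (interval 0.970 to 1.15, which includes 1). Its log2 fold of 0.08 was at the 54.6th percentile of all genes kept. Its relatives were scarce in both libraries: Egr2 had 34 and 56 counts, Egr3 10 and 6, and Egr4 12 and 0. Egr1 made up 93.8% of the Egr family per length untreated and 94.2% Dox. Nab1 and Nab2, the corepressors that bind Egr proteins, were at 116.2 and 129.0 CPM and at 94.4 and 67.3 CPM, both within 2-fold. Egr1 (Entrez 13653) lies on chromosome 18.

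Nr4a1 and Nr4a3 encode orphan nuclear receptors, and Nr4a1 (Nur77) is widely used as a readout of T-cell receptor signalling. Nr4a1 (Entrez 15370; chromosome 15, 101253902 to 101274795) had 959 and 1887 counts (56.2 and 115.2 CPM), a ratio of 2.05 (interval 1.90 to 2.22). Nr4a3 (Entrez 18124; chromosome 4, 48045078 to 48086447) had 4 and 67 counts (0.234 and 4.09 CPM), a ratio of 17.5 (interval 6.51 to 65.9). The interval of Nr4a3 overlaps that of Fos, so the order of these ratios is not resolved at this depth. Nr4a2, the third family gene, had 0 counts in both libraries, which allows up to 0.176 CPM untreated and 0.183 CPM Dox at a limit of 3 counts. Nr4a1 held 99.5% of the Nr4a transcripts per length untreated and 95.5% Dox, so the gene with the wider gap, Nr4a3, remained a minor part.

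Ier2, a short nuclear protein gene of the immediate early class, also lay within 2-fold. It was at 75.7 and 87.4 CPM, from 1293 and 1431 counts, a ratio of 1.15 (interval 1.07 to 1.24). Ier2 (Entrez 15936; chromosome 8, 84661331 to 84662852) and Egr1 were thus both clearly expressed in the untreated cells and differed little, while Fos and Jun were low there. The untreated level did not separate the genes, however. Jund, Zfp36, Junb and Nr4a1 were at the level of Egr1 or above per length in the untreated library, and all were called higher with Dox.

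Zfp36, which encodes tristetraprolin, an RNA-binding protein that directs mRNAs to decay, had the largest absolute gain. It had 867 and 4235 counts (50.8 and 258.6 CPM), a ratio of 5.09 (interval 4.73 to 5.48). Zfp36 (Entrez 22695) lies on chromosome 7, 28376784 to 28379228. Of its relatives, Zfp36l2 was at 161.6 and 483.9 CPM (log2 fold 1.58) and Zfp36l1 at 58.2 and 105.5 CPM (0.86). Per length, Zfp36 made up 30.6% of this family untreated and 46.0% Dox, beside 48.6% and 42.9% for Zfp36l2.

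Ordered by RPKM, the untreated library ran from Ier2 (49.8) through Jund (35.6), Zfp36 (28.8), Junb (26.9), Nr4a1 (22.7) and Egr1 (21.6), with a gap down to Fos (3.36), Jun (2.22), Fosb (1.15) and Nr4a3 (0.124). The 95% counting intervals of neighbours overlapped for Zfp36 with Junb and for Nr4a1 with Egr1. In the Dox library the order was Zfp36 (146.5), Jund (87.3), Junb (75.1), Ier2 (57.4), Nr4a1 (46.5), Fos (45.5), Egr1 (22.8), Jun (11.0), Fosb (4.04) and Nr4a3 (2.17). Only Nr4a1 and Fos overlapped there. Ier2 led the untreated order and Zfp36 the Dox order. Fos stood at the 24.7th percentile of all genes kept by RPKM untreated and at the 81.7th in the Dox library, and Zfp36 at the 71.9th and 95.1th.

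**Figure D4:**
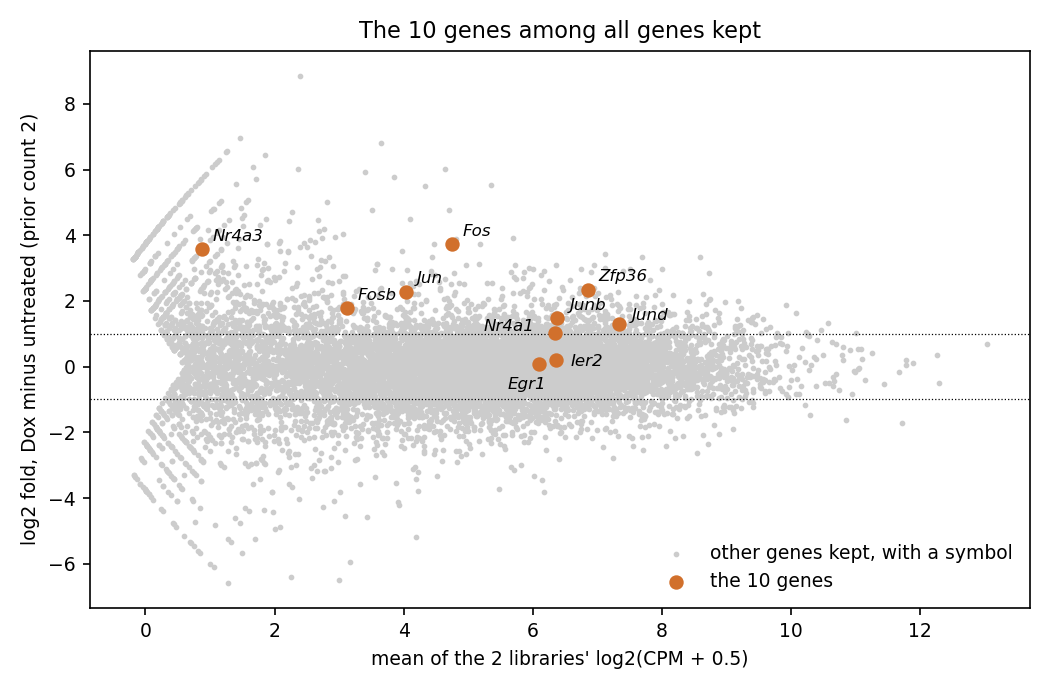
Log2 fold (prior count of 2) against mean log2 level for all genes kept that have a symbol (grey) and the 10 immediate early genes (orange); dotted lines mark 2-fold. Fos lies at 3.74, while Egr1 (0.08) and Ier2 (0.21) lie in the middle of the cloud.

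Related genes outside the 10 are given by their counts and medians, to be read against the shares and the median of all genes above. Of 11 other AP-1 and related bZIP factors kept, 3 were called higher and 0 lower, and the median log2 fold was -0.02. Among those called higher, Bach2, a repressor of effector genes, was at 7.32 and 21.6 CPM (1.55), and Batf, an AP-1 partner that works with Irf4, at 36.1 and 72.6 CPM (1.01). Batf fell short of 2-fold with total-count or DESeq2 scaling, which left 2 called higher. The abundant Bach1 (-0.10) and Atf2 (-0.02) differed little.

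Among 23 other immediate early genes kept, 8 were called higher and 2 called lower, and the median was 0.65. The higher genes included the stress-response genes Gadd45b (3.51 and 12.5 CPM; log2 fold 1.80) and Ppp1r15a (18.4 and 62.2 CPM; 1.75), and the Krueppel-like factors Klf6 (37.8 and 109.4 CPM; 1.53), Klf2 (156.1 and 411.4 CPM; 1.40) and Klf4, which had only 4 and 18 counts (1.78). The 2 lower genes were Myc (265.7 and 18.9 CPM; -3.80), a growth factor-induced gene that Notch also drives in T-ALL, and Arc (24.5 and 8.18 CPM; -1.57). Mcl1, a survival gene, was at 269.0 and 508.5 CPM (0.92).

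Genes of the signalling chain that feeds the 10 genes were counted in the same way. Of all genes kept, 13.6% were called higher and 13.0% called lower. Of 16 SRF, Ets-partner and CREB regulators kept, 3 were called higher and 0 lower (median 0.33): Mrtfa, an SRF coactivator (121.6 and 294.6 CPM; 1.28), Crtc3, a CREB coactivator (53.3 and 126.4 CPM; 1.24) and Crebbp (13.2 and 30.7 CPM; 1.21). The acetyltransferase gene Ep300 was at 0.75. Of 23 Ras and ERK cascade genes, 1 was called higher, the Ras-inactivating Rasa3 (111.4 and 503.2 CPM; 2.17), and 1 called lower, Nf1, which also inactivates Ras (15.4 and 7.45 CPM; -1.04). Rasgrp1, the exchange factor that activates Ras in T cells, was at 457.0 and 812.6 CPM (0.83). The median of that list was 0.21. All 15 JNK and p38 cascade genes kept were within 2-fold (median 0.16), with Mapk14 at 0.27 and Map3k7 at 0.16.

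Genes that restrain MAP kinases went in both directions. Of 12 kept, 3 were called higher and 3 called lower (median -0.02). Dusp1, the phosphatase gene often induced together with Fos, was at 6.68 and 15.9 CPM (log2 fold 1.23), Dusp6 at 6.85 and 14.0 CPM (1.02) and Dusp10 at 79.5 and 159.3 CPM. Of these, 1 stayed called higher with total-count or DESeq2 scaling or a prior count of 5. Spry1 (85 and 8 counts; -3.07), Spry2 (21 and 4 counts; -1.89) and Dusp4 (94.3 and 31.4 CPM; -1.58) were lower, and the abundant Dusp2 was at 0.32. A filter of at least 5 CPM left out Spry1 and Spry2, so that 1 was called lower and the median was 0.32. Of 16 genes of the calcium and NFAT pathway, 2 were called higher and 0 lower (median 0.66): Prkcq, the protein kinase C of the T-cell receptor (266.6 and 825.9 CPM; 1.63) and Stim1, the calcium store sensor (98.8 and 220.8 CPM; 1.16).

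Among regulators of AP-1 protein, 2 of 10 were called higher and 0 lower (median 0.12). These were the ubiquitin ligase genes Fbxw7 (24.9 and 52.0 CPM; 1.06) and Itch (65.0 and 134.2 CPM; 1.04), both of which target Jun proteins. Beside Zfp36 itself, the 17 genes of its family and of mRNA decay included 2 called higher, Zfp36l2 and the deadenylase gene Cnot6l (124.3 and 296.3 CPM; 1.25), and 0 lower (median -0.09). Hnrnpd, another AU-rich element binder, was at -0.68. Transcripts known to carry AU-rich elements that this family binds were mixed. Of 7 kept, 2 were called higher, Pim1 (31.4 and 131.9 CPM; 2.07) and Tnfaip3 (28.1 and 78.2 CPM; 1.47), and 2 called lower, Myc and Ccnd1 (127.6 and 25.7 CPM; -2.31), with a median of -0.69. The cytokine genes Il2, Ifng, Csf2 and Il3 had 0 counts in both libraries.

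**Figure D5:**
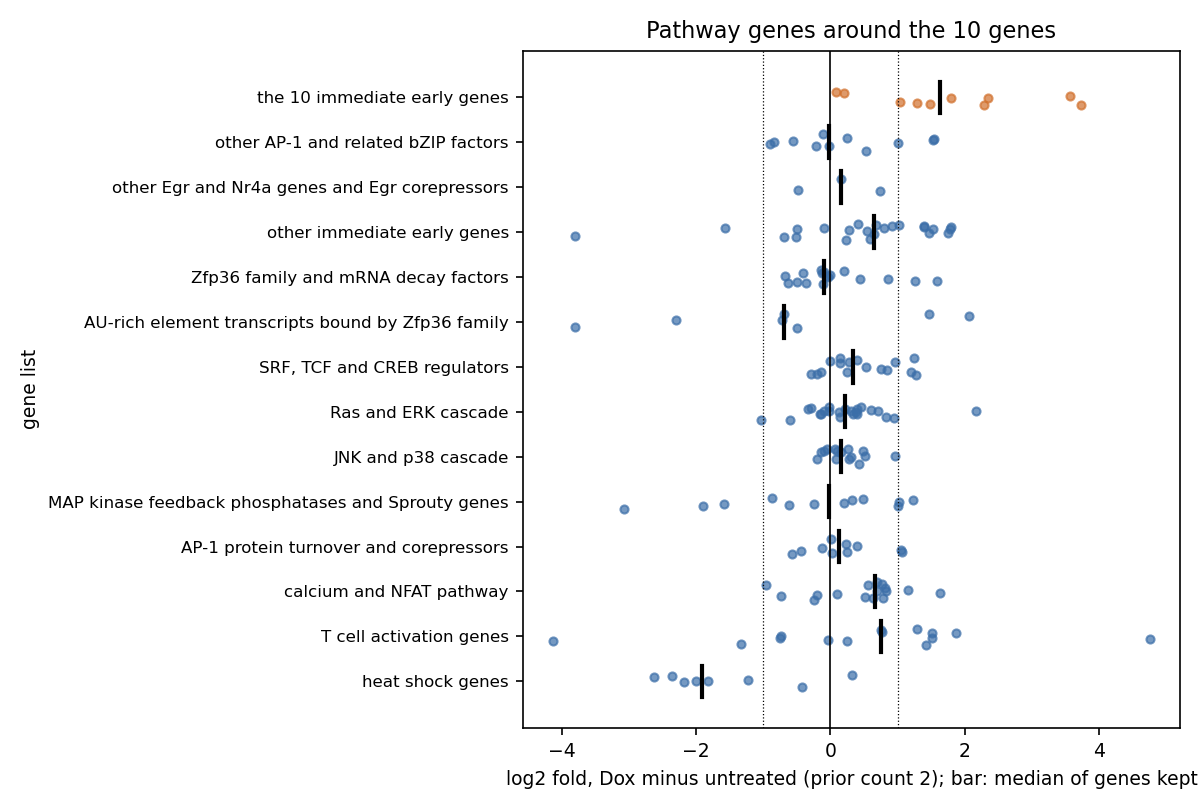
Log2 fold, Dox minus untreated with a prior count of 2, of every gene kept in each list (points) and the list's median (black bar); dotted lines mark 2-fold. The 10 immediate early genes (orange) have a median of 1.63, the other immediate early genes 0.65, and the JNK and p38 cascade 0.16 with every point inside the lines.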

How the data were processed

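RNA sequencing counts of 2 libraries were used, 1 untreated and 1 Dox. The authors deposited raw read counts per gene by Entrez identifier, with a gene length column. The build was mm10 and the tools CASAVA 1.8.2 and featureCounts, per the submitters' processing notes. The sources used here name no aligner, annotation, strand setting or handling of multiply aligned reads, so overlapping genes on opposite strands cannot be told apart. The series table and the separate sample tables held the same counts (0 of 27179 genes differed), and 0 value columns were unassigned. RefSeq (GRCm38.p6) gave symbols to 25275 genes, and counts without one made up 1.20% (untreated) and 0.977% (Dox) of the totals. RefSeq also gave coordinates and promoter windows, and GENCODE M21 exons and overlaps.

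Totals were scaled by TMM with edgeR 4.0.16 (R 4.3.3), giving factors of 1.01 and 0.994. CPM and RPKM were computed from the counts. The filter kept genes that reached 1 CPM in either library. With 1 library per group, edgeR's test between groups was not run. Ratios have exact Clopper-Pearson 95% intervals and levels exact Poisson intervals, both for counting error only. The steps were run on simulated counts in which 200 genes were changed by known folds. These held counting error only and no spread between mice or libraries. The members and gene lists were chosen with earlier results of these data known. Named are the members, their family relatives, Ikzf1, and per pathway list up to 4 genes beyond 2-fold in each direction and the 2 most abundant. Of cell type lists, the most abundant genes, those with the largest folds and those at 0 counts are named. Some genes that this rule names are left out of the text. Cd163, Fasl and Dnajb1 were named after their values were seen. Alternatives were other scalings (DESeq2 1.42.0 among them), prior counts, filters, thinning, totals without genes of other cell types, and other thresholds. Python 3.11.15, numpy 2.4.6, pandas 2.3.3, scipy 1.17.1 and matplotlib 3.10.9 were used.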

Additional observations from a re-analysis of the deposited data

How the results depend on the processing

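With 1 library per condition, no replicate could be left out, and the values describe these libraries only. No paired analysis was possible because each group has 1 library. Of the 10 genes, 8 were at least 2-fold higher under every scaling (TMM, total counts, DESeq2 size factors, upper quartile), with prior counts of 0.5 and 5, with a filter of at least 1 count, with the deeper library thinned and with totals that left out genes of other cell types. A filter of at least 5 CPM left out Nr4a3, so 7 were higher and the median log2 fold was 1.48. The interval rule left 7, and a 4-fold threshold left 4. Nr4a1 had log2 folds of 1.01 to 1.06 over the settings, Egr1 0.05 to 0.10, and Nr4a3, from few counts, 3.04 to 3.96. Over all genes, those at least 2-fold higher numbered 1644, and 2993 with a filter of at least 1 count, 1091 with at least 5 CPM and 541 at 4-fold. Those at least 2-fold lower numbered 1581, and 1016 with the interval rule and 372 at 4-fold. These counts differ because the filters and thresholds admit fewer or more genes. By CPM in place of RPKM, the Fos family held 20.7% of the Fos and Jun family transcripts in the Dox library, and 7.08% in the untreated library.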

Other observations

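Genes that mark activated T cells did not move as 1 group beside the immediate early genes. Of 14 kept, 6 were called higher with Dox and 2 called lower at 2-fold, and the median log2 fold was 0.76. Of the 6, Fasl, Tnfrsf9 and Cd40lg reached 1 CPM in the Dox library alone, and a filter of at least 5 CPM left 3. Cd69, an early activation antigen that retains cells in lymphoid organs, was at 9.20 and 26.4 CPM (1.51), and the adhesion receptor Cd44 at 1.87 and 7.14 CPM (1.86). Cd40lg, a helper ligand, had 0 and 51 counts. With the untreated library set to a floor of 3 counts and the Dox counts taken as observed, it was at least 17.7-fold higher. With counting error in both libraries, the exact 95% interval of the ratio began lower, at 13.9. Tnfrsf9 had only 6 and 20 counts. Il2ra, the interleukin-2 receptor alpha chain, was lower (59.6 and 3.30 CPM; -4.13), as was Irf4 (49.9 and 19.7 CPM; -1.33), a transcription factor graded by receptor signal strength. Cd5, whose level follows receptor signalling in thymocytes, was at 133.4 and 225.5 CPM (0.76) and Pdcd1 at -0.74.

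Most heat shock genes kept, which can be induced beside immediate early genes when cells are stressed, were lower with Dox. Of 8 kept, 6 were called lower and 0 called higher, and the median was -1.91. Dnajb1 was the 1 kept gene with a positive log2 fold (117.2 and 145.7 CPM; 0.31). The part of stress in these results was not tested. Hspd1 was at 928.1 and 149.5 CPM (-2.63), Hsp90aa1 at 952.1 and 185.3 CPM (-2.36), Hsph1 at -2.19, Hspe1 at 211.4 and 52.9 CPM and Hspa8 at 761.0 and 325.4 CPM (-1.23). The stress-inducible pair Hspa1a and Hspa1b, near-identical copies that may share reads, had 8 and 12 counts and 31 and 7 counts.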
